A study of Mus musculus with 6 samples.

Results

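The 50 genes described here carry a cell through mitosis: the kinases and cyclins that start it, the spindle checkpoint, the kinetochore and the spindle, the condensins, and the proteins that part the chromatids and cut the cell in 2. They were chosen by name from what they are known to do, among 37074 gene names on the array, with earlier results of these data known. All 50 were present, on 102 probes. RNA came from osteoclast cultures of 3 Ano1fl/fl mice, in which loxP sites surround an intact Ano1 gene, and of 3 Ctsk-Cre;Ano1fl/fl littermates. Both groups carry the floxed alleles, and the Cre transgene is what sets them apart. The cathepsin K promoter drives Cre, so that excision is limited to cells that have turned this gene on, and other cells of the same dish keep Ano1, a calcium-activated chloride channel. For such cultures the methods describe bone marrow of mice 6 to 8 weeks old, 1 day in 10 ng/ml M-CSF, and then 30 ng/ml M-CSF with 50 ng/ml RANKL, the cytokine that drives osteoclast formation. RANKL was given for 5 days in both groups, and most mouse lines of the study were on a C57/BL6 background.

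As background, a cell enters mitosis when cyclin B and the kinase Cdk1 together become active. The spindle checkpoint then holds the cell until every chromosome is attached to the spindle, after which Cdc20 turns on the anaphase-promoting complex, a ubiquitin ligase that marks cyclin B and securin for destruction. Transcripts of most of these genes rise shortly before division and are low in cells that have left the cycle. In osteoclast cultures the macrophage precursors divide under M-CSF, whereas osteoclasts form by fusion of precursors and do not divide.

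Each array gives the brightness of 1 dye at 59305 spots for transcripts, of which 33480 to 34951 were well above background, and none was saturated. Values are the log2 of the signal processed by the scanner software, quantile normalized between the 6 arrays. Where a gene had several probes, that with the highest mean over the 6 arrays stood for it, and 20645 genes were tested, those whose probe exceeded background clearly on each of the 3 arrays of a group. All 50 mitosis genes passed this filter, and each was well above background on all 6 arrays. Across the tested genes, Pearson's r was 0.995 to 0.997 between arrays of a group and 0.947 to 0.951 between the groups, a description across genes, which are not independent replicates. The 6 arrays limit the precision, and with 3 arrays per group the smallest p of an exact two-sided permutation test is 0.1. The only probe of Ano1 (mm9 chromosome 7, from 151774604 to 151774663) was not well above background on any of the 6 arrays, so it does not check which arrays hold the knockout. The osteoclast markers Ctsk (3.17), Mmp9 (4.36), Acp5 (0.84) and Nfatc1 (0.53), given as log2 differences, were all higher on the arrays labelled Ctsk-Cre;Ano1fl/fl. This is opposite to the direction that the study gives for these genes in this genotype by another assay. Whether the groups were exchanged cannot be settled from these files, and an exchange would turn the sign of every difference given here. Every direction is therefore that of the label. The cultures are bulk samples, in which fewer dividing cells and less RNA of these genes per cell cannot be told apart.

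All 50 genes were lower on the arrays labelled Ctsk-Cre;Ano1fl/fl than on those labelled Ano1fl/fl, by an adjusted p of 4.84e-05 to 0.00551 in limma's test, and none was higher. Of all genes tested, 29.0% were lower and 23.4% were higher by the same test. The 50 differences ran from -0.38 for Pttg1 to -2.77 for Aspm on the log2 scale, which is 1.30-fold to 6.81-fold lower, with a median of -1.74 beside a median of -0.06 over all genes tested. In 44 of the 50 the fall was more than 2-fold, a call made for 7.19% of all genes, and in 11 it was more than 4-fold, beside 1.34% of all genes. The count past 4-fold rested on single arrays, as it was 6 without Ctsk-Cre;Ano1fl/fl replicate 2 and 20 without Ctsk-Cre;Ano1fl/fl replicate 3. The groups did not overlap in any of the 50, with each array labelled Ctsk-Cre;Ano1fl/fl below each array labelled Ano1fl/fl, as was so for 35.4% of all genes.

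**Figure D1:**
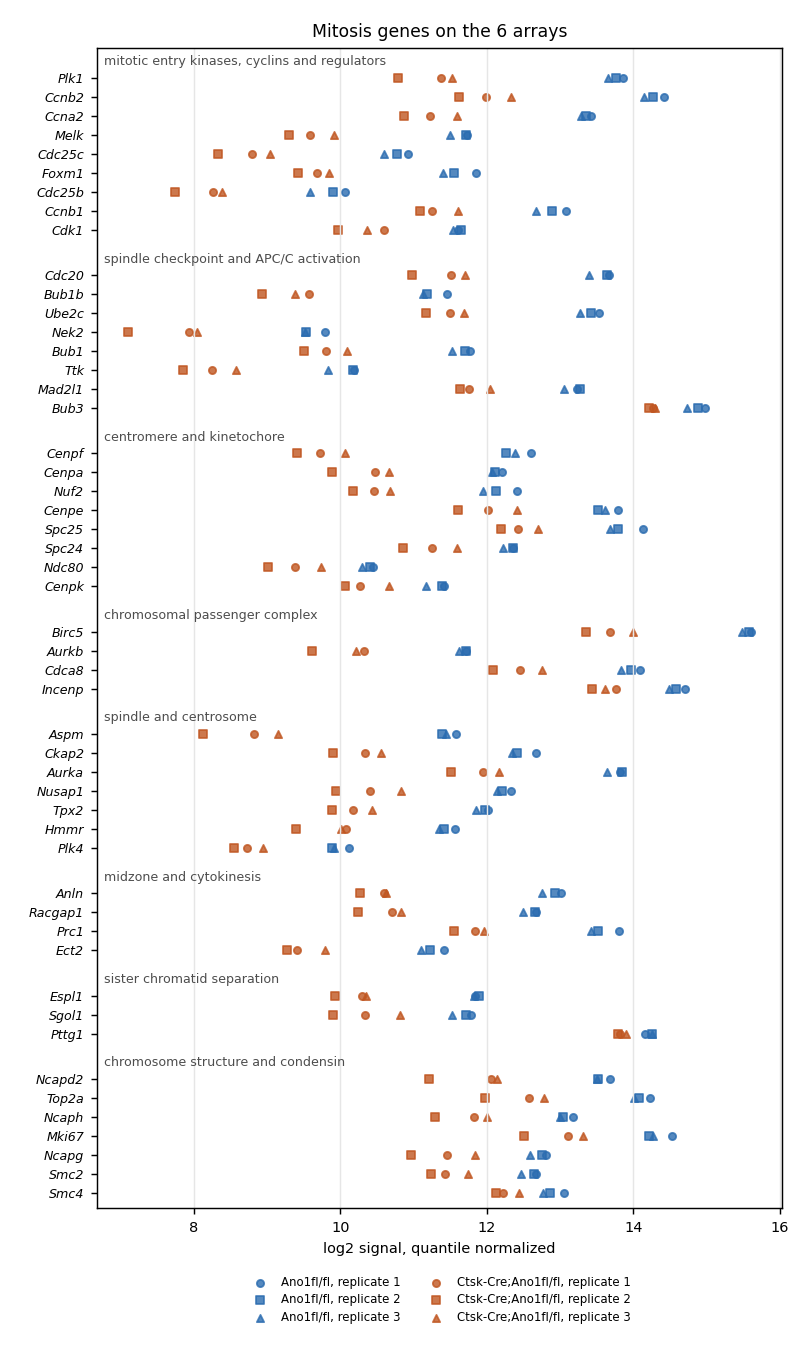
Quantile normalized log2 signal (horizontal axis) of each of the 50 mitosis genes (rows, grouped by role) on the 3 Ano1fl/fl arrays (blue) and the 3 Ctsk-Cre;Ano1fl/fl arrays (orange), with 1 mark per array and the shape giving the replicate. In every row the orange marks lie to the left of the blue ones, and the orange square, Ctsk-Cre;Ano1fl/fl replicate 2, is the lowest; levels of different rows come from different probes and are not comparable.

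The promoters of mitosis genes are known for a short element near the start of transcription, the cell cycle genes homology region, and for CCAAT boxes, where the factor NF-Y binds. The homology region is bound by the MuvB complex, which represses these genes in resting cells and, with B-Myb and Foxm1, activates them before mitosis. RefSeq promoters of the build GRCm38.p6 were at hand for 42 of the 50 genes (Sgol1 under its current symbol Sgo1), and not for Aurkb, Ccna2, Cdc25c, Foxm1, Incenp, Smc4, Spc24 and Tpx2. The pieces shown are those of the 3 genes with the largest falls whose promoter holds the letters TTTGAA, and, for contrast, of the gene with the largest fall whose promoter holds none of the homology region letters searched. Each runs in the direction of the gene from 120 bases before the annotated start to 30 bases after it. Capitals mark 4 motifs on either strand: TTTGAA, the usual form of the homology region, its variant TTTAAA, which has an A in the middle, the rarer variant TTCGAA, and the box CCAAT.
Aspm (chr1:139454653-139454802, plus strand): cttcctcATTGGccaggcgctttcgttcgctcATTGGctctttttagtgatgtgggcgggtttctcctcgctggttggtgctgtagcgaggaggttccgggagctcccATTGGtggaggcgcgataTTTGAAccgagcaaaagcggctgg
Cenpf (chr1:189688057-189688206, minus strand): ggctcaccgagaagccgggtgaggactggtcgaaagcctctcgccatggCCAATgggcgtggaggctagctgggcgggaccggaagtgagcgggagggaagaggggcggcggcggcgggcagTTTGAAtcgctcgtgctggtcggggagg
Plk1 (chr7:122159315-122159464, plus strand): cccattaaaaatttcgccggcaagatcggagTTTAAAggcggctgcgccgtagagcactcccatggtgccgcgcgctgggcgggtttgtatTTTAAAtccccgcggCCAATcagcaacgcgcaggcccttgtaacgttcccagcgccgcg
Melk (chr4:44300797-44300946, plus strand): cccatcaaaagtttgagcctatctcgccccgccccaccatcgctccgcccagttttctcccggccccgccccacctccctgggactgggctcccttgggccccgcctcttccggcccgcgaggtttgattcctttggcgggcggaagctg

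In Aspm the letters TTTGAA began 7 bases after the start and in Cenpf 3 bases after it, each downstream of at least 1 CCAAT box. Plk1 had TTTAAA at 89 and 29 bases before the start, and its TTTGAA began 31 bases after the start, just past the piece shown. Melk had none of the 4 motifs in its whole window of 250 bases before to 50 after the start, although its signal fell 4.15-fold.

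Over the whole window of 250 bases before to 50 after the start, TTTGAA was found on either strand in 27 of the 42 mitosis genes (64.3%), compared with 20.2% of the 27025 genes with a promoter and 15.2% of the 11612 of them that were tested on the arrays. TTTAAA was found in 23.8% of the mitosis genes and 14.9% of all genes, and TTCGAA in 11.9% and 1.80%. At least 1 of the 3 was found in 34 of the 42 genes (81.0%) and in 31.9% of all genes. CCAAT was found in 32 of the 42 (76.2%) and in 41.1% of all genes. The letters TTTAAA and TTCGAA read the same on both strands, and matches that overlap one another were each counted. A gene with several listed promoters counted once, if any of them held the motif. The contrast was largest just after the start. In the first 25 bases after the start, 34.0% of the 47 listed promoters of these genes held 1 of the 3 homology region motifs, beside 2.12% of all 32851 promoters. From 250 to 226 bases before the start, the shares were 2.13% and 3.89%. Limited to bases before the start, TTTGAA was found in 33.3% of the mitosis genes and 18.3% of all genes. These are matches of letters and a description, with no test.

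**Figure D2:**
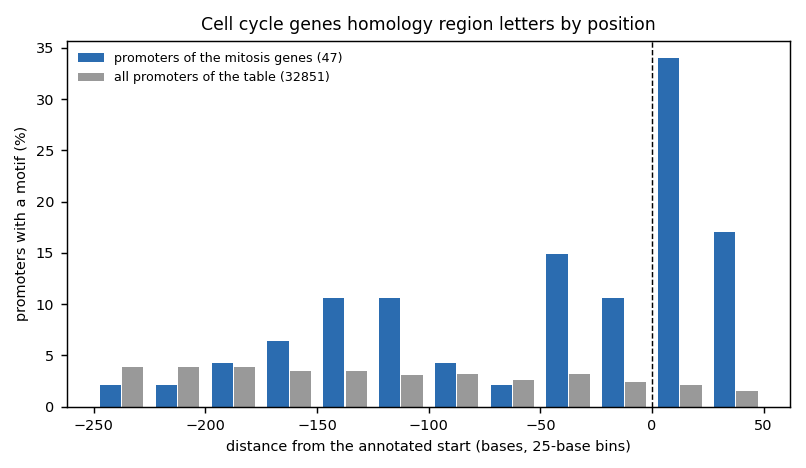
Share of promoters (percent, vertical axis) in which 1 of the 3 homology region motifs begins in each 25-base bin of distance from the annotated start (horizontal axis, bases), for the 47 promoters of the mitosis genes (blue) and all 32851 promoters of the table (grey). The blue bar is highest in the first 25 bases after the start, at 34.0% beside 2.12%.

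The 34 genes with at least 1 homology region motif had a median log2 difference of -1.76, and the 8 without one (Cenpk, Mad2l1, Melk, Ncaph, Nek2, Nuf2, Nusap1 and Pttg1) had a median of -1.55. All 42 of these genes fell, with and without the motif.

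The 9 genes of mitotic entry all fell by more than 2-fold, with a median log2 difference of -2.04. Plk1 encodes the polo-like kinase that drives entry, centrosome maturation and cytokinesis. Its log2 signal was 13.85, 13.77 and 13.65 on the Ano1fl/fl arrays as against 11.38, 10.79 and 11.52 on the Ctsk-Cre;Ano1fl/fl arrays (probe at mm9 chromosome 7, from 129313220 to 129313279). The groups lay far apart, and the difference was -2.53 ± 0.19 (SE, n = 3 in each group; limma's adjusted p = 0.000182), a 5.77-fold fall. Cyclin B2, encoded by Ccnb2, partners Cdk1. It gave 14.42, 14.27 and 14.14 on the control arrays and 11.995, 11.61 and 12.33 on the others, a difference of -2.30 ± 0.19 (adjusted p = 0.000228). Cyclin B1, from Ccnb1, is the main mitotic cyclin. Its values were 13.09, 12.89 and 12.67 against 11.25, 11.09 and 11.61, a difference of -1.56 ± 0.17 (adjusted p = 0.000643). Cdk1 itself, the kinase that both cyclins activate, had 11.61, 11.64 and 11.54 against 10.60, 9.96 and 10.37, and its difference of -1.29 ± 0.16 (adjusted p = 0.00118) was the smallest of the 9. Foxm1, the transcription factor that turns on many of the other genes of mitosis, had 11.85, 11.56 and 11.40 against 9.67, 9.42 and 9.85. Its difference was -1.95 ± 0.16 (adjusted p = 0.000211), or 3.87-fold lower. The remaining 4 were cyclin A2 (Ccna2, -2.13), the kinase Melk (-2.05), and the phosphatases Cdc25c (-2.04) and Cdc25b (-1.72), which remove the inhibitory phosphates from Cdk1.

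Of the 8 genes of the spindle checkpoint and of the activation of the anaphase-promoting complex, 7 fell by more than 2-fold, and the median difference was -1.89. Cdc20, the activator that the checkpoint holds back, had the largest fall of the 8 with the probes used here. It had 13.66, 13.64 and 13.40 on the Ano1fl/fl arrays as against 11.51, 10.98 and 11.70 on the Ctsk-Cre;Ano1fl/fl arrays, a difference of -2.17 ± 0.19 (adjusted p = 0.000323) or 4.50-fold. Bub3, a checkpoint protein that docks Bub1 and BubR1 at the kinetochore, fell least, by 1.52-fold. It had 14.98, 14.89 and 14.74 against 14.27, 14.22 and 14.30, a difference of -0.61 ± 0.08 (adjusted p = 0.00163). Its 3 values on the Ctsk-Cre;Ano1fl/fl arrays were close together, with an SD of 0.038, while those of Cdc20 had an SD of 0.372. Between these lay Bub1b, which encodes BubR1 (-1.96), Ube2c, the ubiquitin-conjugating enzyme of the complex (-1.96), the centrosome kinase Nek2 (-1.92), the checkpoint kinases Bub1 (-1.86) and Ttk (-1.84), and Mad2l1, which encodes the Mad2 protein that sequesters Cdc20 (-1.37).

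At the centromere and kinetochore, where chromosomes meet spindle microtubules, all 8 genes fell, with a median of -1.53. Cenpf, a large kinetochore protein made in G2, had 12.60, 12.27 and 12.38 on the Ano1fl/fl arrays as against 9.72, 9.40 and 10.06 on the Ctsk-Cre;Ano1fl/fl arrays (probe at mm9 chromosome 1, from 191465934 to 191465993). Its difference of -2.69 ± 0.18 (adjusted p = 0.000114), a 6.45-fold fall, was close to that of Aspm, and which of them was the larger changed with the processing. Spc25, a subunit of the Ndc80 complex that binds microtubules, had 14.14, 13.79 and 13.68 against 12.43, 12.20 and 12.70, a difference of -1.43 ± 0.17 (adjusted p = 0.000993). The 4 subunits of that complex did not fall by the same amount: Nuf2 differed by -1.72 ± 0.17, Spc25 as given, Spc24 by -1.08 ± 0.18 and Ndc80 by -0.997 ± 0.18, and differences between these were not tested. Cenpa, the histone H3 variant that marks the centromere, differed by -1.79, the kinesin Cenpe by -1.62, and Cenpk, of the constitutive centromere network, by -0.99.

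The chromosomal passenger complex corrects faulty attachments and later directs cytokinesis. All 4 of its genes fell, with a median of -1.58. Birc5, which encodes survivin, had 15.60, 15.58 and 15.48 against 13.68, 13.35 and 13.99, a difference of -1.88 ± 0.16 (adjusted p = 0.000283) or 3.67-fold. Aurkb, its kinase, differed by -1.63, Cdca8, which encodes borealin, by -1.53, and the scaffold Incenp by -0.99.

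All 7 spindle and centrosome genes fell by more than 2-fold, and the median was -1.83. Aspm, which organises spindle poles, had the largest difference of the 50 genes in this fit, a place that Cenpf took with other background correction, on the series matrix and without Ctsk-Cre;Ano1fl/fl replicate 2. Its signal was 11.58, 11.38 and 11.44 on the Ano1fl/fl arrays as against 8.82, 8.13 and 9.15 on the Ctsk-Cre;Ano1fl/fl arrays (probe at mm9 chromosome 1, from 141390377 to 141390436). The difference was -2.77 ± 0.25 (adjusted p = 0.000352), and the SD of 0.522 on the Ctsk-Cre;Ano1fl/fl arrays was several times that of 0.105 on the others. Aurka, the kinase of the spindle poles, had 13.82, 13.85 and 13.65 against 11.95, 11.52 and 12.17, a difference of -1.90 ± 0.17 (adjusted p = 0.000342). Ckap2 (-2.22) and Nusap1 (-1.83) bind spindle microtubules, Tpx2 (-1.78) activates Aurora A, Hmmr (-1.61) acts in spindle assembly, and Plk4 (-1.23) is the kinase that starts centriole duplication.

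The genes of the midzone and of cytokinesis, 4 in number, all fell by more than 2-fold, with a median of -1.91. Anln encodes anillin, the scaffold of the contractile ring. It had 13.01, 12.94 and 12.76 against 10.60, 10.26 and 10.62, a difference of -2.41 ± 0.13 and the smallest adjusted p of the 50 genes (4.84e-05). Prc1, which bundles the microtubules of the midzone, had 13.80, 13.52 and 13.42 against 11.83, 11.55 and 11.96, a difference of -1.80 ± 0.15 (adjusted p = 0.000226). Racgap1 (-2.02) and Ect2 (-1.76) work together to switch on RhoA at the division plane.

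The 3 genes of sister chromatid separation had a median of -1.32 and a wide range. Espl1 encodes separase, the protease that opens cohesin. It had 11.84, 11.89 and 11.83 against 10.29, 9.93 and 10.35, a difference of -1.66 ± 0.12 (adjusted p = 0.000154). Pttg1 encodes securin, which holds separase inactive, and it had 14.16, 14.25 and 14.25 against 13.82, 13.80 and 13.90. Its difference of -0.38 ± 0.07 (adjusted p = 0.00477), 1.30-fold, was the smallest of the 50, although the groups still did not overlap. A second probe of Pttg1 gave a larger difference, -0.97 ± 0.12, and with the mean of all probes the smallest difference was that of Bub3 (-0.61). Sgol1, which encodes shugoshin, the guardian of centromeric cohesin, differed by -1.32.

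Among the 7 genes of chromosome structure the median was -1.36. Mki67, which encodes the proliferation marker Ki-67, had 14.54, 14.21 and 14.27 against 13.11, 12.51 and 13.31. Its difference was -1.36 ± 0.22 (adjusted p = 0.0031), or 2.57-fold. Ncapd2, a subunit of condensin I, had 13.68, 13.51 and 13.51 against 12.06, 11.21 and 12.14, a difference of -1.76 ± 0.25 (adjusted p = 0.00188). The other condensin I subunits Ncaph (-1.37) and Ncapg (-1.29) and the shared ATPases Smc2 (-1.12) and Smc4 (-0.63) fell less, differences among them not being tested. Top2a, the topoisomerase that untangles chromatids, differed by -1.66.

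**Figure D3:**
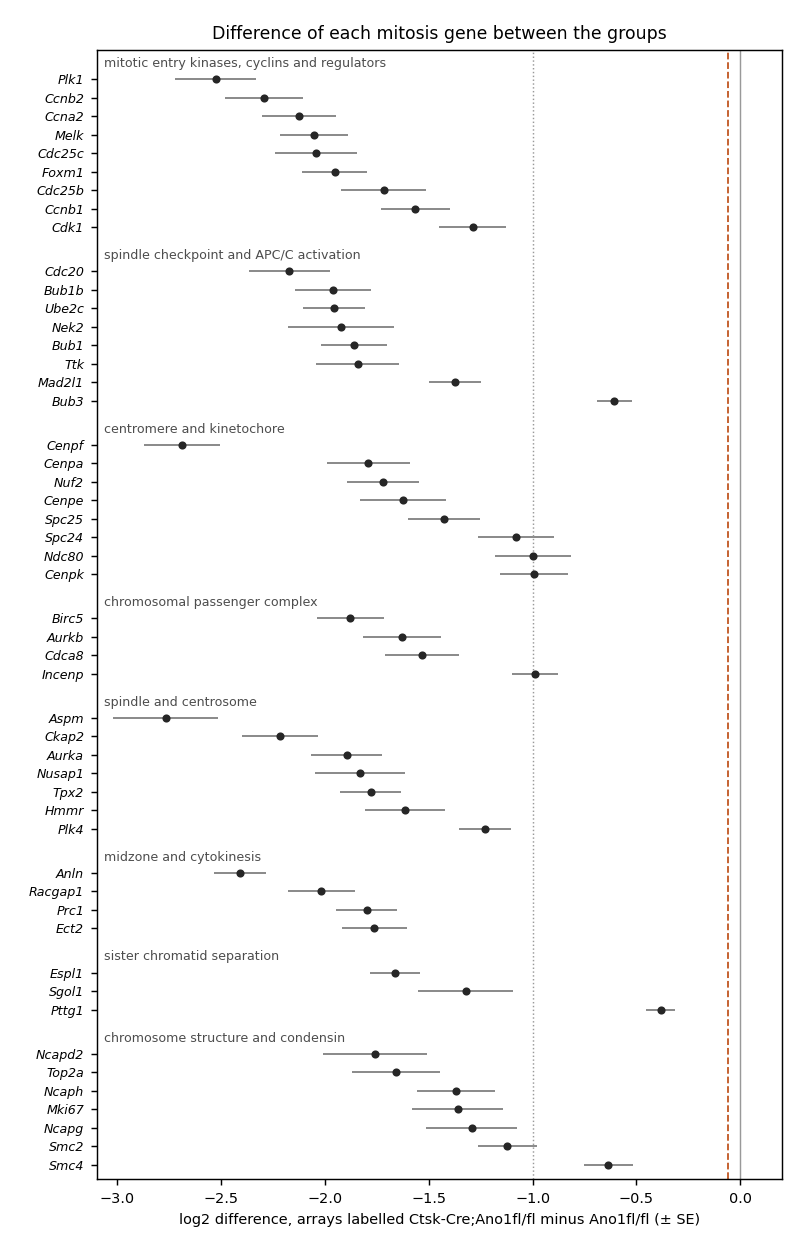
Difference in log2 signal between the arrays labelled Ctsk-Cre;Ano1fl/fl and those labelled Ano1fl/fl (horizontal axis; points, with bars for the SE from limma, n = 3 in each group) for the 50 genes (rows) grouped by role. The grey dotted line marks a 2-fold fall and the dashed line the median of all genes tested, -0.06; 44 points lie to the left of the dotted line, and Pttg1, Bub3 and Smc4 lie closest to 0.

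Just above a 2-fold fall were Spc24 (2.11-fold) and Smc2 (2.18-fold), and just below it were Ndc80 (1.996-fold), Cenpk (1.99-fold) and Incenp (1.98-fold). These 3 passed 2-fold when the arrays were scaled to their 75th percentile. Across the 50 genes the mean signal on the Ano1fl/fl arrays and the difference had a Pearson's r of 0.11, a description over genes that share the same 6 arrays.

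Of the 102 probes, 90 were well above background on all 6 arrays, and all 90 were called lower, beside 29.9% of the 28597 such probes on the arrays. Among these, no gene had probes that disagreed in sign. A further 6, of Anln, Aspm, Cdca8, Ect2, Prc1 and Ttk, passed the filter only through the Ano1fl/fl arrays, which favours a lower call, and are not counted. Of the 40 probes above background on all arrays that did not stand for their gene, 2 gave a difference more than 1.5-fold from that of the probe that did. Both were of Hmmr, with -2.52 ± 0.25 and -2.51 ± 0.26 in place of -1.61. The remaining 6 probes, 1 each of Aspm, Bub1, Foxm1, Nuf2, Plk4 and Sgol1, were not well above background on the arrays of either group, and no fold is given for them. For a probe that was measured on the Ano1fl/fl arrays but was not well above background on any Ctsk-Cre;Ano1fl/fl array, only a lower limit can be given, with the lowest signal that counts as well above background standing in for the second group. Such probes gave falls of at least 1.84-fold for Anln, at least 2.39-fold for Ect2 and at least 2.66-fold for Prc1. They are among the probes not counted above, and their falls add no support to the counts. In all, 31 of the genes had more than 1 probe, up to 5, and 19 had 1.

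The arrays of a group kept much the same order from gene to gene. On the Ctsk-Cre;Ano1fl/fl arrays, replicate 2 was the lowest of the 3 for all 50 genes, and replicate 3 was the highest for 45 and replicate 1 for 5. Over all genes tested replicate 2 was the lowest for 32.5%. In the other lists of cell division described further on, the same array was the lowest of its group for 33 of 33 genes of DNA replication and S phase, 12 of 12 mitotic kinesins, 26 of 30 further centromere and kinetochore genes and 23 of 31 further spindle genes. It was the lowest for 11 of 16 cohesin and condensin genes, 11 of 19 genes of MuvB and E2F, 9 of 15 of G1 and 6 of 15 of the anaphase-promoting complex. On the Ano1fl/fl arrays, replicate 1 was the highest for 43 of the 50 and replicate 3 the lowest for 44, compared with 38.7% and 36.6% of all genes. The median log2 signal of the 50 genes was 12.67, 12.53 and 12.43 on the Ano1fl/fl arrays as against 10.65, 10.25 and 10.83 on the Ctsk-Cre;Ano1fl/fl arrays. The spread was wider within the second group, with a median SD over the 50 genes of 0.33 as against 0.12, while over all genes tested these medians were 0.13 and 0.12. The SD was larger on the Ctsk-Cre;Ano1fl/fl arrays for 48 of the 50 genes and for 53.0% of all genes. Without Ctsk-Cre;Ano1fl/fl replicate 2 the median difference was -1.55, and all 50 genes were still called lower. These shares describe genes that share arrays.

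**Figure D4:**
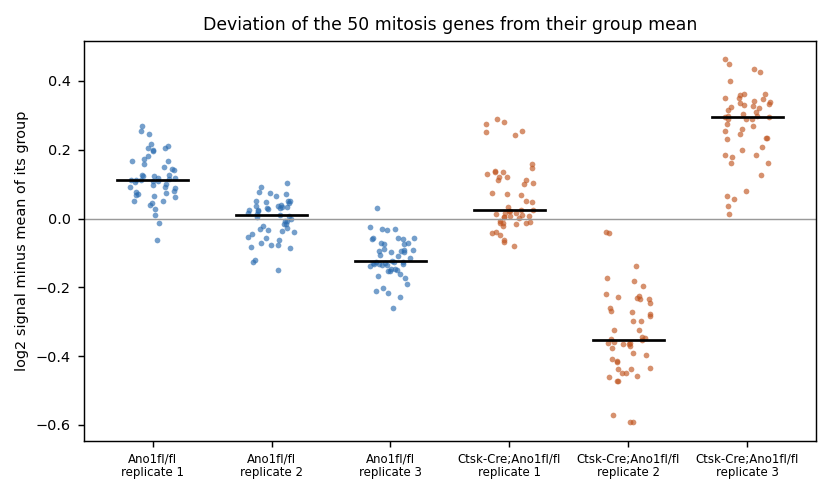
Log2 signal of each of the 50 genes minus the mean of its group (vertical axis) on each of the 6 arrays (1 column per array; points are genes, horizontal bars are medians, and the sideways spread of points has no meaning). All 50 points of Ctsk-Cre;Ano1fl/fl replicate 2 lie below 0.

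Genes of other steps of cell division were counted in lists drawn up from their known roles, with earlier results of these data known. Beside each count stand the 29.0% of all genes tested that were lower and the 23.4% that were higher. The 12 mitotic kinesins, the motors that move chromosomes and slide spindle microtubules, were all lower, with a median of -1.91, and Kif20a, which acts in cytokinesis, had the largest fall (-2.41 ± 0.17, adjusted p = 0.000148). Of 30 further centromere and kinetochore genes, 28 were lower, with a median of -1.03, among them Casc5, a scaffold of the outer kinetochore (-2.04). Of 31 further spindle, centrosome and mitotic exit genes, 26 were lower and 2 were higher, with a median of -0.83. Spag5 differed by -2.02, and the kinase Nek6 rose most (0.54 ± 0.12, adjusted p = 0.0127). Of 16 genes of cohesin, its regulators and the other condensin subunits, 13 were lower and 1 higher (median -0.48). Sgol2a fell most (-1.88), and the gene that rose was Wapal (0.46 ± 0.07, adjusted p = 0.00213), which releases cohesin from chromosomes.

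The anaphase-promoting complex is what Cdc20 and Ube2c, described above, act on. Of 15 genes for its subunits and partners, 7 were lower, beside 29.0% of all genes tested, and 8 did not pass the test, with a median of -0.32. The largest fall was that of Fbxo5, an inhibitor of the complex (-1.21 ± 0.18, limma's adjusted p = 0.0021). Among 19 genes of MuvB, B-Myb, the E2F factors and the pocket proteins, which control the transcription of cell cycle genes, 11 were lower, 2 were higher and 6 did not pass (median -0.55). E2f7 fell most (-1.54), and E2f3 rose most (0.54 ± 0.11, adjusted p = 0.00657). The difference in Mybl2, which encodes B-Myb, was -0.76 ± 0.29 and missed the threshold (adjusted p = 0.0718); it is named after its value was seen.

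Genes of DNA replication and S phase were lower in 29 of 33, and none was higher, with a median of -0.75, and Tk1, the thymidine kinase of dividing cells, fell most (-1.63 ± 0.12, adjusted p = 0.000178). Of the 33, 10 fell by more than 2-fold, as against 44 of the 50 mitosis genes. Of 15 genes for G1 cyclins, their kinases and the CDK inhibitors, 8 were lower and 3 were higher (median -0.29), beside 29.0% and 23.4% of all genes tested. Ccnd1, which encodes cyclin D1, fell most (-2.45 ± 0.26, adjusted p = 0.000634), and Cdkn2b, which encodes the Cdk4 inhibitor p15, rose most (2.67 ± 0.24, adjusted p = 0.000338). The other genes that rose were Cdkn2a (2.20) and Ccnd2 (2.01). The medians are given side by side, and differences between the lists were not tested.

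**Figure D5:**
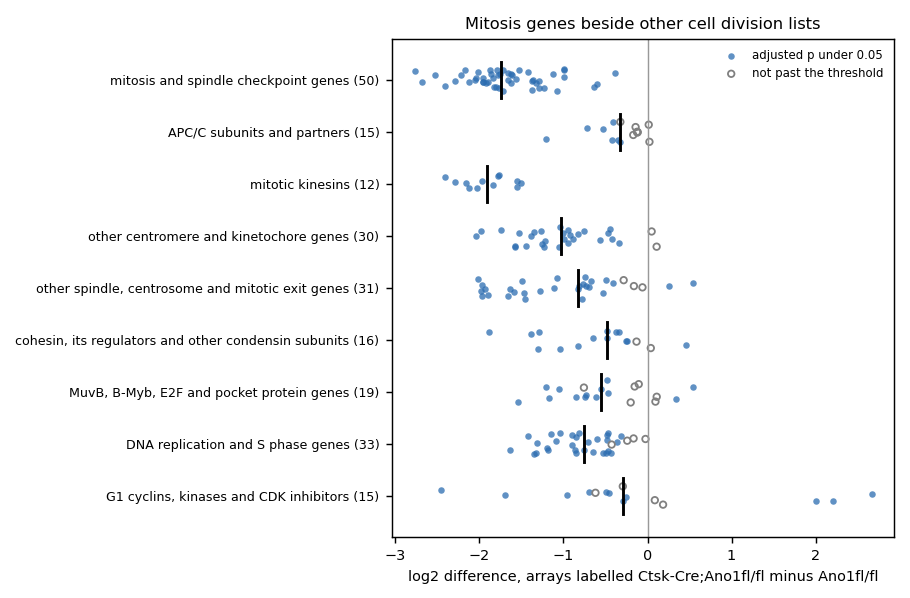
Difference in log2 signal between the arrays labelled Ctsk-Cre;Ano1fl/fl and those labelled Ano1fl/fl (horizontal axis) for the genes of each list (rows, number of genes in brackets); filled points passed limma's test at an adjusted p under 0.05, open ones did not, and bars are medians. The median is -1.74 for the 50 mitosis genes and -1.91 for the mitotic kinesins, beside -0.75 for S phase genes and -0.29 for G1 genes.

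Markers of several cell types moved with the same 2 groups. On the arrays labelled Ctsk-Cre;Ano1fl/fl all 10 osteoclast markers were higher, with a median of 3.02. The sum of their signals was 146420 to 158910 on the Ano1fl/fl arrays and 498920 to 562110 on the others. Of 10 macrophage markers 2 were higher and 3 lower (sums of 527810 to 548700 and 554120 to 609930). Their median was 0.05, with a range of -4.62 (Cx3cr1) to 0.80 (Adgre1). Such sums weigh the brightest markers most. Of 12 stromal and osteoblast markers 11 were higher, with a median of 3.90 and sums of 3534 to 4064 and 64594 to 106860. The count and the median include Pdgfra and Lum, which were not well above background on any Ano1fl/fl array. These 2 passed the filter only through the Ctsk-Cre;Ano1fl/fl arrays, which favours a higher call, and they add no support to the count. Of 8 markers of granulocyte precursors, which are dividing cells of the marrow, 7 were lower and none higher, with a median of -3.38 and sums of 130710 to 145040 and 11625 to 20364. All 8 were lowest on Ctsk-Cre;Ano1fl/fl replicate 2 among the 3 arrays of that group, the array on which all 50 mitosis genes were lowest, and all 10 osteoclast markers were highest on it. That array was also the lowest of its group for 7 of 7 mast cell and basophil markers, 7 of 8 B cell markers and 6 of 8 neutrophil markers. It was the lowest for 5 of 8 T and NK cell markers, 3 of 12 stromal and osteoblast markers and 1 of 10 macrophage markers. Among the erythroid, dendritic cell and endothelial markers it was the lowest for 1 of 4, 1 of 5 and 1 of 4. Of 7 mast cell and basophil markers 6 were lower (median -2.53; sums of 7431 to 9741 and 1072 to 3908), and of 8 B cell markers 7 were higher and 1 lower (median 2.68; sums of 38044 to 42535 and 88161 to 118910).

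The other lists gave mixed counts, to be read beside the same shares of all genes, 29.0% lower and 23.4% higher. Of 8 neutrophil markers 1 was higher and 5 were lower (sums of 224270 to 241440 and 206540 to 253450). Their median was -0.45, with a range of -3.68 (Retnlg) to 0.33 (Ltf). Of 8 T and NK cell markers 2 were higher and 2 lower (3577 to 4009 and 2198 to 3068), with a median of -0.38 and a range of -1.77 to 2.66. Of the erythroid markers 4 of 9 passed the filter, with 2 lower (6025 to 7702 and 2812 to 4343). Of the dendritic cell markers 5 of 7 passed, with 2 higher and 1 lower (11351 to 12954 and 13392 to 17150), and of the endothelial markers 4 of 6, with 1 in each direction (3701 to 4791 and 1745 to 2003). The part that any of these cell types has in the fall of the mitosis genes was not tested.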

How the data were processed

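Total RNA of 6 cultures, 3 per genotype, was labelled with Cy3 and hybridised to 1 Agilent mouse array each, all on 1 slide and read in 1 scan. The authors' files hold scanner intensities from Agilent Feature Extraction 10.7.1.1 (the submitters' processing notes), with background and trends within the array already removed in the processed signal, and flags, another kind of column, for spots well above background, saturated or outlying. The deposited series matrix holds intensities equal to the median brightness of each spot (largest difference 0). From these, control spots and outliers were left out, the log2 processed signal was quantile normalized, as the methods name, and spots of a probe were averaged; 14 probes with a missing value were dropped. A probe counted as well above background where at least 0.5 of its spots were. limma 3.58.1 in R 4.3.3 (lmFit and eBayes) compared the groups, with Benjamini-Hochberg adjustment over 20645 genes at a threshold of 0.05, and the fit was tested on simulated data. The simulated noise was drawn for each gene on its own, so it does not cover deviations that genes share on an array. Probe positions (mm9) and gene names are those of the array files. Promoters were those of RefSeq, and sequences of no other kind were used. Tables were made with Python 3.11.15 and pandas 2.3.3, and plots with matplotlib 3.10.9.

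The genes and lists were chosen with earlier results of these data known. Values on all 6 arrays are given, in each role, for the member with the highest mean signal and the one with the largest difference, and for Cdk1, Ccnb1, Plk1, Mki67 and Foxm1. In each further list the called genes with the largest rise and the largest fall are named. The samples of a group are separate mice per the methods. As alternatives, arrays were scaled to their 75th percentile, background was corrected by normexp (offset 50), the series matrix was used, and there were other filters and probe rules, other tests, a replicate block, and fits without each array.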

Additional observations from a re-analysis of the deposited data

How the results depend on the processing

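All 50 genes were called lower, and none higher, under each alternative that changed the scaling, the background correction, the series matrix, the filter on dim probes, the rule for several probes, or the test, and without any 1 array; at an adjusted p under 0.05 with more than 2-fold required, 44 were called lower and 0 higher, and 47 with 75th percentile scaling, 43 with the mean of all probes and 43 to 47 without 1 array. The median difference was -1.79 with 75th percentile scaling, -1.65 with normexp, -1.69 on the series matrix and -1.78 with the mean of all probes, and -1.87 to -1.55 without 1 array, the last without Ctsk-Cre;Ano1fl/fl replicate 2. More than 4-fold lower were 11, and 8 with normexp and on the series matrix, 13 with the mean of all probes and 6 to 20 without 1 array. Aspm had the largest fall (-2.77), but Cenpf did with normexp (-2.61 as against -2.60 for Aspm), on the series matrix (-2.67 and -2.63) and without Ctsk-Cre;Ano1fl/fl replicate 2 (-2.53 and -2.48). The gene with the largest fall also changed with some alternatives in 5 of the further lists, those led by Kif20a, Casc5, Spag5, E2f7 and Tk1, and the rise of Wapal was not called with the mean of all probes. That mean also takes in probes not well above background, 1 of Aspm among them, so that it sets no order between Aspm and Cenpf. The difference of Pttg1 was -0.38, and -0.68 with the mean of its probes. Of all genes, 8999 to 11312 were called under these alternatives, compared with 10826. The methods' t-test called 9674 after adjustment and 11541 unadjusted, with all 50 genes called both ways. A replicate block gave 9279 calls and the same 50, with adjusted p up to 0.023. Whether replicate numbers pair littermates is not stated. Deviations of same-numbered arrays correlated at 0.00443, -0.0617 and -0.0808, and those of differently numbered arrays at -0.123 to 0.179. Such values over 3 arrays per group cannot settle whether the samples are paired. Scaling to the 75th percentile left the number called lower in each further list within 1.5 times the value given. Limited to bases before the start, the share of genes with TTTGAA was 33.3% in place of 64.3%, and that among all genes 18.3% in place of 20.2%. The number of arrays limits every value.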
